A study of Mus musculus with 15 samples.

Results

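WT stage 3 invariant natural killer T (iNKT) cells of the thymus were compared with WT thymic T cells, on 3 arrays each of the 15 arrays of the series. The 6 arrays were chosen by their sample titles alone, with no measured value used. Both groups were sorted from the thymi of 4-week-old mice with the genotype Dicer lox/lox CD4-Cre -/-, so both carried floxed Dicer alleles and neither carried the Cre transgene. Stage 3 iNKT cells were gated as HSA low, TCRβ intermediate, CD1d tetramer positive, NK1.1 positive and CD44 high. T cells were gated as HSA low, TCRβ positive and CD1d tetramer negative, a gate that does not separate CD4, CD8 and regulatory T cells. WT stage 1-2 iNKT cells, gated like stage 3 but NK1.1 negative with CD44 either high or low, served for some named genes. The KO iNKT and KO T arrays (CD4-Cre +/-) shared the estimate of the spread and the detection filter, and gave marker levels for comparison. Biotin-labelled amplified RNA was hybridised to Illumina mouse bead arrays, which read each gene through 1 or more probes. The labels do not say that the 3 samples of a group came from separate mice, so the p-values below measure the spread between these samples, which may be partly technical.

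iNKT cells are T cells with a nearly invariant antigen receptor that recognises glycolipids held by CD1d, a molecule related to MHC class I. They branch off from double-positive thymocytes and mature through numbered stages, of which the last is marked by NK receptors, dependence on IL-15 and readiness to secrete IFN-γ along with IL-4. Conventional thymic T cells of the same HSA low gate are naive cells about to leave for the lymph nodes, which rely on KLF2, CCR7 and the transcription factors of the naive state.

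The compared arrays had median raw signals of 105 to 117 for stage 3 cells and 93.1 to 109 for T cells. Between 29.2% and 35.7% of probes were detected above background on stage 3 arrays, and between 32.5% and 38.8% on T cell arrays, and probes near that limit carry the least precise values. Normalized arrays correlated at 0.945 to 0.958 within the stage 3 group, at 0.975 to 0.986 within the T cell group and at 0.860 to 0.896 between the groups, across genes. No array was identical to another. The Y-linked gene Eif2s3y was at 7.87, 7.81 and 8.04 (log2 normalized signal) on stage 3 arrays and at 4.31, 8.60 and 8.35 on T cell arrays, so T cell replicate 1 stood apart from the other 5. Sex was not given by the labels.

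Of 6838 genes tested, 1578 (23.1%) differed between stage 3 iNKT and T cells at an adjusted p under 0.05 (limma, Benjamini-Hochberg, two-sided). In stage 3 cells 722 genes rose (10.6%) and 856 fell (12.5%). A change of at least 2-fold was reached by 438 of the risen and 465 of the fallen genes, and one of at least 8-fold by 60 risen and 17 fallen genes. No T cell array detected 108 of the risen genes (14.96%), and no stage 3 array 135 of the fallen ones (15.77%). Fold changes of such genes are given as "at least", since the lower signal was not told from background. All 3 stage 3 arrays lay above all 3 T cell arrays for 1209 genes (17.7%) and below them for 1548 (22.6%). The count of calls rested on the normalization. When arrays were scaled to a common median in place of quantile normalization, 192 genes were called, 92 higher and 100 lower, and the median log2 difference of all genes was -0.30, against -0.06 with quantile normalization. Without T cell replicate 1 there were 1141 calls. In bulk samples of this kind a smaller share of cells that use a gene and less of its RNA per cell cannot be told apart.

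**Figure D1:**
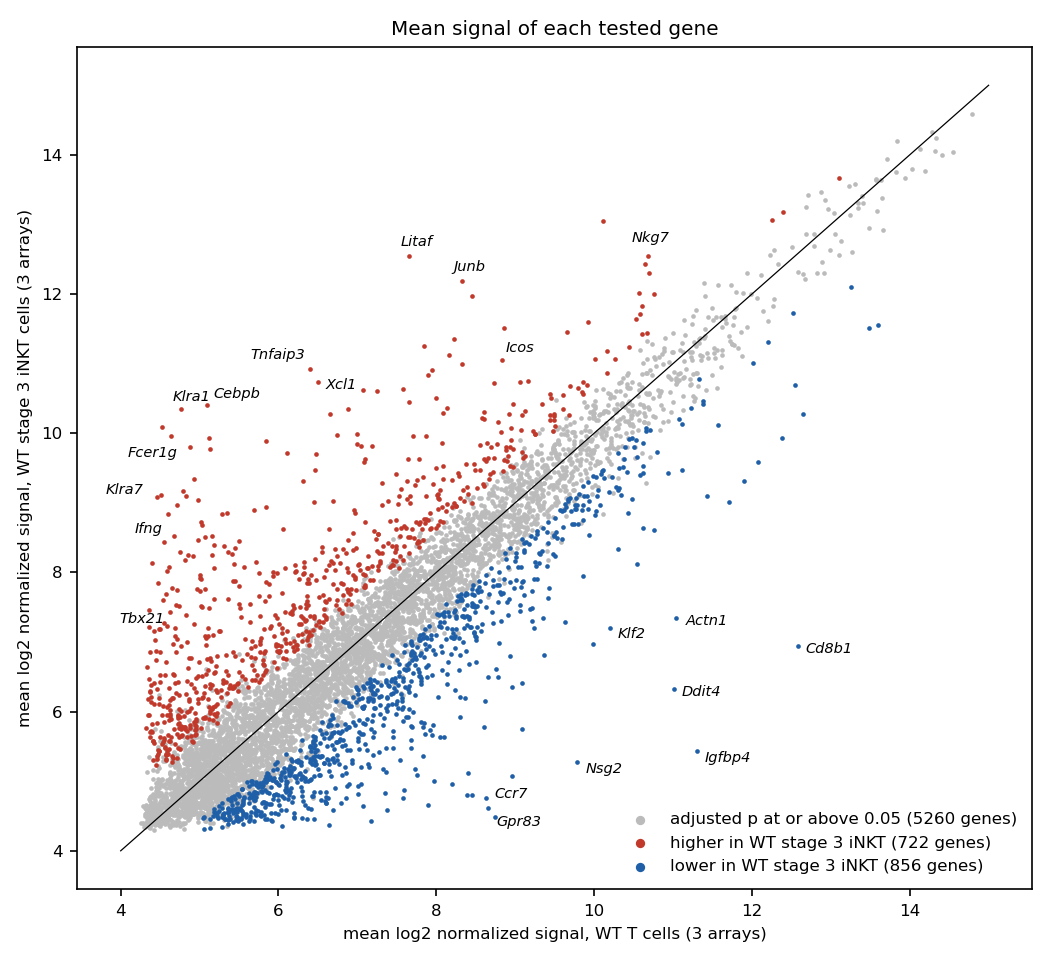
Mean log2 normalized signal of each of the 6838 tested genes in WT stage 3 iNKT cells (vertical axis, 3 arrays) against WT T cells (horizontal axis, 3 arrays). Red points are the 722 genes that rose and blue points the 856 that fell; the line marks equal signal, and the genes farthest from it include Klra1, Fcer1g and Cebpb above and Igfbp4 and Cd8b1 below.

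The gates were visible in part. Klrb1c, which encodes NK1.1, had log2 normalized signals of 7.99, 8.74 and 8.65 on stage 3 arrays, against 5.19, 5.27 and 4.48 on T cell arrays. Cd44 was at 8.05, 7.64 and 7.95 in stage 3 cells and at 5.53, 5.22 and 5.62 in T cells for the probe used, whereas the other detected Cd44 probes differed by 1.00 and -0.16. Since cells were sorted on these proteins, both are checks and no findings. Cd24a, which encodes HSA, did not pass the detection filter in any group, and Zbtb16, which encodes the iNKT factor PLZF, was not analysed here. The genes of the CD3 chains were high in both groups. Cd3e, for instance, was at 11.70, 11.96 and 11.39 in stage 3 cells and at 11.51, 11.76 and 11.72 in T cells, and none of Cd3d, Cd3e and Cd3g was called different (log2 differences of -0.46, 0.02 and -0.13).

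Markers of myeloid cells were present at a low level in the stage 3 arrays. Markers that only other groups detected were tested too, and with the 6 compared arrays alone 3 neutrophil and 3 monocyte markers passed the filter. The 10 tested neutrophil granule markers averaged 6.36, 5.23 and 5.16 on stage 3 arrays and 4.51, 4.66 and 4.51 on T cell arrays (mean log2 normalized signal). The same list reached 8.81 to 9.77 in stage 1-2 cells and 8.56 to 11.85 in KO iNKT cells, so stage 3 had the lowest values of the iNKT groups. S100a8, an abundant neutrophil protein gene, was at 9.99, 7.96 and 6.45 in stage 3 cells against 4.40, 4.53 and 4.27 in T cells, and S100a9 at 8.64, 5.32 and 5.96 against 4.32, 4.37 and 4.31. These 2 were the neutrophil markers called, S100a9 not without stage 3 replicate 1 or any 1 of the T cell arrays, while Mpo and Retnlg were detected on no stage 3 array. Ltf, at 7.41, 4.68 and 6.64 against 4.41, 4.62 and 4.44, was not called (adjusted p = 0.0804).

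Of 9 tested monocyte and macrophage markers 4 rose (Lyz1, Lyz2, Tyrobp and Fcer1g), with array means of 5.48 to 6.18 in stage 3 cells and 4.42 to 4.48 in T cells. Tyrobp lost its call in 5 of 6 runs with 1 array left out, all but that without stage 3 replicate 2. Cd14, Adgre1 and C1qb were detected on no stage 3 array. Of 9 tested dendritic cell markers 5 rose (H2-Aa, H2-Ab1, H2-Eb1, Cd74 and Irf8, of which H2-Aa not without stage 3 replicate 1) and Bst2 fell, with array means of 5.45 to 6.76 in stage 3 cells and 4.98 to 5.18 in T cells. Among NK cell markers Fcgr3, Tyrobp and Irf8 rose beside the sort marker Klrb1c, with Fcgr3 and Tyrobp lost in the same 5 runs, whereas Ncr1, Eomes, Klrg1, Itga2, Gzmb and Cma1 passed the detection filter in no group. Of 3 B cell markers Blk rose, Cd79b fell (a call lost when any 1 of the 6 arrays was left out) and Fcrla was detected on no array of either group. The 2 tested gamma delta T cell markers, Blk and Il17re, are also type 17 genes, and both rose. Of 7 tested markers of double-positive thymocytes Cd4 and Themis fell and Aqp11 rose by 0.72, a call lost without stage 3 replicate 1 or 3 or T cell replicate 1 or 3. Rag1 differed by 0.20 and was not called, and Dntt and Arpp21 were detected on no array of either group. No erythroid or platelet marker of the 7 on the array passed the detection filter, and of the stroma markers Krt8 was detected in neither group while Pecam1 fell by 1.88 on the log2 scale. The part of these cells in the differences given below was not tested.

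**Figure D2:**
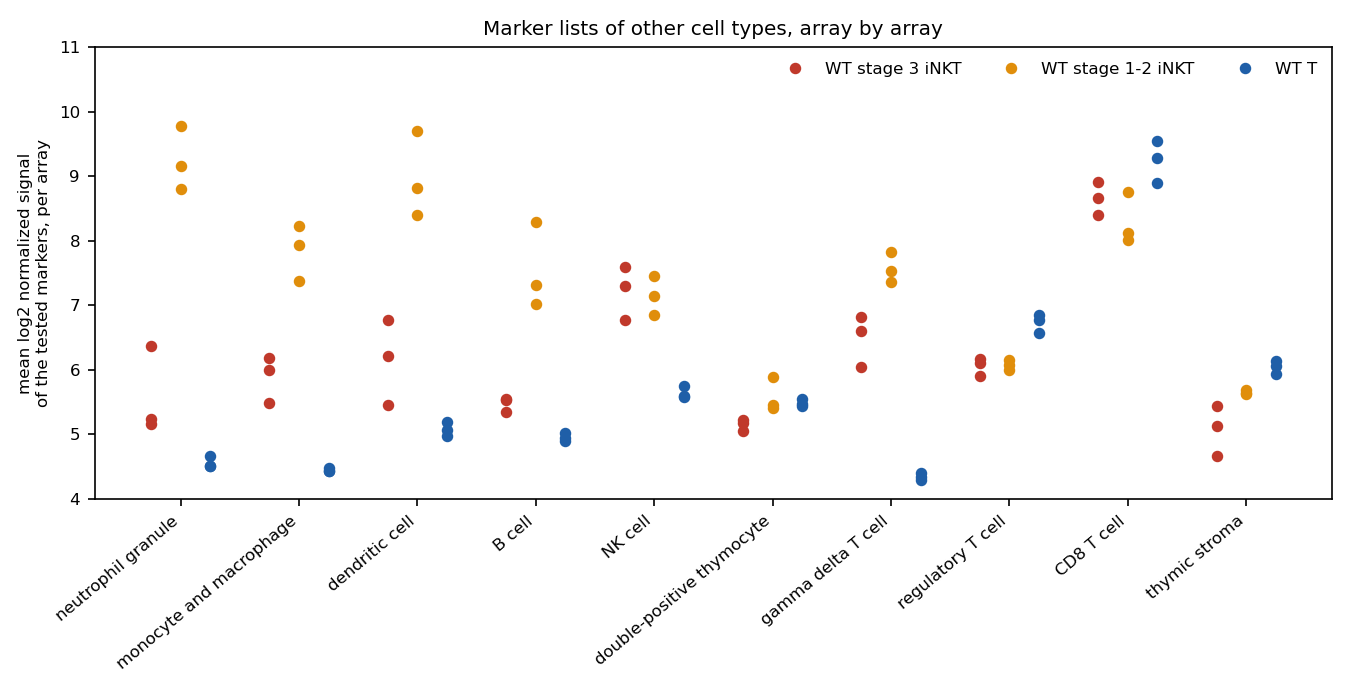
Mean log2 normalized signal of the tested markers of other cell types (vertical axis) for each array, in WT stage 3 iNKT (red), WT stage 1-2 iNKT (orange) and WT T cells (blue). Each point is 1 array; neutrophil, monocyte and dendritic cell markers are above the T cell level on all 3 stage 3 arrays and higher still on stage 1-2 arrays.

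Clone and predicted-gene symbols, and marker genes of other cell types in no gene list, were left out of the rankings of largest changes. The largest increases of the remaining genes belonged to NK receptors, a signalling adaptor, transcription factors and regulators of inflammatory signalling. The 12 largest rises among them were those of Klra1, Klre1, Fcer1g, Cebpb, Bhlhe40, Litaf, Klra10, Crem, Klra7, Nfil3, Tnfaip3 and Trf. Cebpb, which encodes a factor used in myeloid and other inflammatory gene control, was at 10.79, 10.20 and 10.25 in stage 3 cells and at 4.69, 5.0 and 5.61 in T cells, a 39.8-fold difference (log2 difference 5.31 ± 0.30 SE, adjusted p = 1.29e-09). Litaf, a lysosomal membrane protein gene, stood at 12.39, 12.29 and 12.95 against 8.0, 7.03 and 7.93. Crem, which encodes a cyclic AMP-responsive factor, was 25.1-fold higher, and Trf, the gene of the iron carrier transferrin, 21.2-fold higher. The groups did not overlap for any of these 4 genes, and all 3 stage 3 arrays were close together.

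The largest decreases, ranked by the same rule, were those of Igfbp4, Cd8b1, Ddit4, Nsg2, Tdrp, Gpr83, Fam169b, Ccr7, Actn1, Amigo2, Tmie and Tnfrsf4. Ddit4 encodes an inhibitor of mTORC1 signalling and was at 7.06, 6.64 and 5.28 in stage 3 cells and at 10.51, 11.29 and 11.25 in T cells (25.8-fold lower, adjusted p = 2.66e-08). Tdrp was detected on no stage 3 array and was at least 12.9-fold lower, with 8.57, 8.81 and 8.84 on T cell arrays. Gpr83, a receptor gene known from regulatory T cells, was at least 12.2-fold lower, with 8.28, 8.85 and 8.85 on T cell arrays. Tnfrsf4, which encodes the costimulatory receptor OX40, was 10.1-fold lower (6.31, 5.92 and 5.04 against 9.33, 8.76 and 9.18). T cell arrays exceeded stage 3 arrays throughout for these genes.

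NK receptor genes had the highest median of the 23 gene lists. Of 27 on the array 15 passed the detection filter, 12 rose and none fell. The median log2 difference of the 15 was 3.07, against -0.06 over all genes tested. No T cell array detected 7 of the 15. Klre1 and Klra7, for instance, passed the filter only through the stage 3 arrays. A fall could not have been seen for such members, so the counts and the median describe the list and test nothing. Over all genes tested 10.6% rose and 12.5% fell, the shares to set beside the counts of every list below. Klrb1c, which encodes the sort marker NK1.1, is among the 12, and its rise is a check and no finding. The Ly49 receptors, which bind MHC class I on other cells, are encoded by the Klra genes. Klra1 was at 9.96, 10.02 and 11.06 in stage 3 cells and at 4.63, 4.53 and 5.12 in T cells (48.0-fold, log2 difference 5.58 ± 0.35 SE, adjusted p = 3.87e-09). Klra10 was at 9.82, 9.75 and 10.21 against 5.33, 4.96 and 5.06, and Klra7 at 8.72, 8.96 and 9.57 against 4.51, 4.46 and 4.40, which makes Klra7 at least 17.5-fold higher. In each of these genes the lowest stage 3 array lay far above the highest T cell array. Klra16 rose by 4.28 and Klra17 differed by 0.01. Probes of this family may read close paralogs, so the values belong to the family more safely than to 1 member.

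Klre1, which encodes a lectin-like receptor subunit of NK cells, was at 10.09, 9.49 and 10.69 in stage 3 cells and at 4.49, 4.35 and 4.75 in T cells, at least 35.2-fold higher. Klrk1, the gene of the activating receptor NKG2D, was at 7.18, 7.28 and 8.37 against 4.84, 4.34 and 4.44, at least 6.30-fold higher. Klrd1, which encodes CD94, the partner of the NKG2 chains, was at 10.79, 11.19 and 10.73 against 7.82, 7.93 and 8.10, so its transcript was detected in T cells too. Cd160, a receptor of NK and memory-like T cells, was 9.39-fold higher (9.80, 9.83 and 10.30 against 6.50, 6.94 and 6.80). Cd226 (0.83) and Cd96 (-0.14), receptors for nectin family ligands, were not called. Of the 12 risen genes 11 lie on chromosome 6 and only Cd160 does not (RefSeq, GRCm38.p6), where 348 of all tested genes lie on that chromosome. The list was written mostly from Klr genes, so this position describes the list and is no result of the comparison. All 12 were called whichever of the 6 arrays was left out, and 9 of them with median scaling.

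The upstream sequences of Klra7 and Klra10 are shown because these neighbouring Ly49 genes differed by similar amounts. The 250 bases before each annotated start are given from the RefSeq promoter table (GRCm38.p6), 5′ to 3′, with the 5 runs of at least 10 bases that both hold in the same order in capitals. The shared runs add up to 78 bases, the longest of 20.
Klra7 (chr6:130231688-130231937, minus strand): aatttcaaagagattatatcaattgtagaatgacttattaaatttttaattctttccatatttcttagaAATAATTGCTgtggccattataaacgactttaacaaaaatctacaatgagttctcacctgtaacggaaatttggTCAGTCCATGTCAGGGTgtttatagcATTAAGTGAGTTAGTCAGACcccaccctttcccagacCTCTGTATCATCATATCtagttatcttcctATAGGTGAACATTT
Klra10 (chr6:130281929-130282178, minus strand): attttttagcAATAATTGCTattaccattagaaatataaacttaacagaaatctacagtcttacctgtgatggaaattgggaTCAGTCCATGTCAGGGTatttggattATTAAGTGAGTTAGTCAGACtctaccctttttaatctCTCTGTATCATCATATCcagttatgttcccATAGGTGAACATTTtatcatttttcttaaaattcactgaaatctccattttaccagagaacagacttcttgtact

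Granule and death ligand genes rose in part. Among 13 tested members 7 rose and none fell, with a median of 1.61. Fasl, the ligand of the death receptor FAS, was at 8.78, 9.04 and 9.70 in stage 3 cells and at 5.16, 4.41 and 4.79 in T cells (20.9-fold, adjusted p = 9.84e-09). Serpinb6b, which encodes a protease inhibitor of cytotoxic cells, was at 8.73, 8.85 and 8.96 against 5.20, 5.35 and 5.48 (11.3-fold). For both genes all stage 3 arrays lay above all T cell arrays, more spread for Fasl than for Serpinb6b. Nkg7, a granule membrane protein gene, was at 12.52, 12.41 and 12.72 against 10.55, 10.66 and 10.82, a 3.66-fold difference on a signal that was high in both groups. Fgl2 (2.16), Srgn (1.99), Cst7 (1.83) and Ctsw (1.61) rose as well. Prf1, the gene of the pore-forming perforin, did not follow them: it was at 9.39, 9.15 and 9.10 in stage 3 cells and at 9.11, 9.42 and 8.49 in T cells, with groups that overlapped (adjusted p = 0.719). Gzma, Gzmb, Gzmc, Gzmk and Gzmm passed the detection filter in no group. With median scaling Fasl, Serpinb6b and Fgl2 were called.

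Among 16 tested cytokine and chemokine genes 7 rose, Ifng and Il4 among them, and 2 fell, with a median of 1.08. Ifng was detected on no T cell array and was at 8.53, 8.10 and 8.92 in stage 3 cells against 4.77, 4.47 and 4.79 in T cells, at least 11.85-fold higher (adjusted p = 1.31e-06). Il4 was at 8.87, 9.18 and 8.66 against 5.52, 5.67 and 5.86 (9.31-fold, adjusted p = 2.07e-06). Both cytokine genes separated all stage 3 arrays from all T cell arrays. Xcl1, which encodes a chemokine for cross-presenting dendritic cells, was at 11.23, 10.71 and 10.27 against 6.73, 5.76 and 7.01 (18.8-fold). Ccl5, a chemokine of effector lymphocytes, was at 10.26, 9.33 and 9.57 against 6.95, 4.91 and 6.46, and its T cell arrays spread the most of this list's named genes. Ccl4 (2.57), Tnfsf14 (1.88) and Tnf (1.25) rose too. Il16 differed by -2.55 and Lta by -1.38, both called, although a second Lta probe differed by only -0.18. Ccl3 (1.31), Il17a (0.92), Tgfb1 (0.52), Ltb (-0.24) and Mif (-0.77) were not called. With median scaling Ifng, Il4, Xcl1 and Il16 were called.

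**Figure D3:**
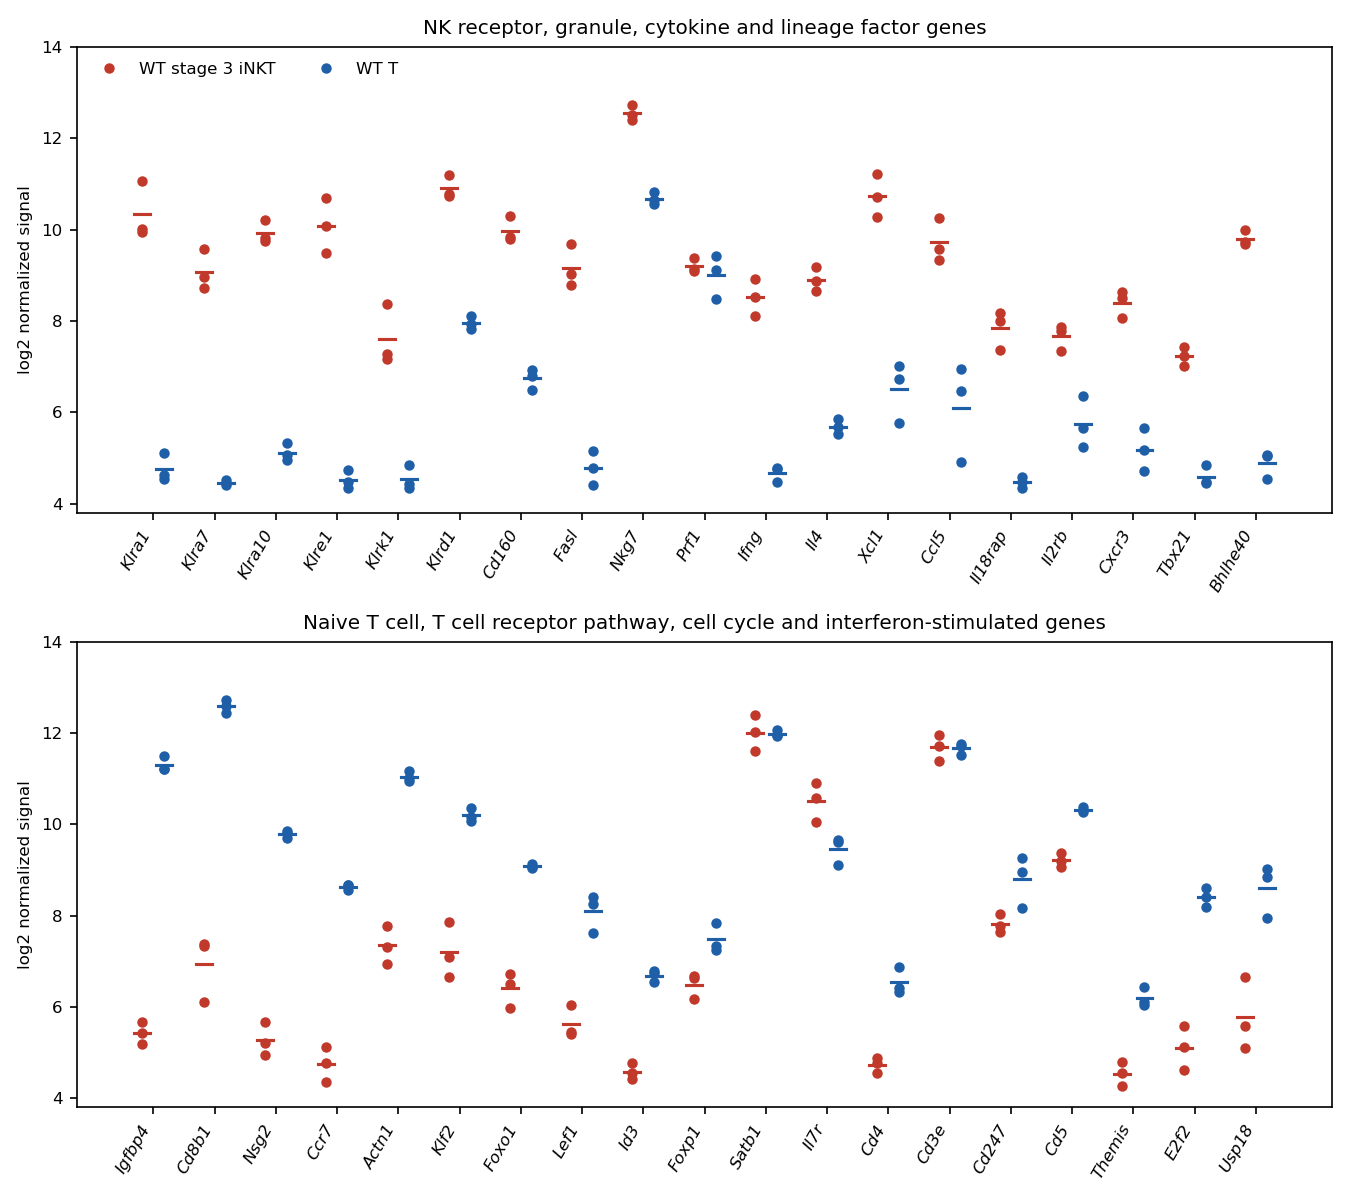
Log2 normalized signal (vertical axis) of 38 genes on each of the 3 WT stage 3 iNKT arrays (red, left) and the 3 WT T arrays (blue, right); points are arrays and bars are group means. The upper panel shows NK receptor, granule, cytokine and lineage factor genes, of which Prf1 alone has overlapping groups, and the lower panel naive T cell, receptor pathway, cell cycle and interferon-stimulated genes; signals of different genes come from different probes and are not comparable with each other.

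Of 19 tested cytokine receptor genes 7 rose and 4 fell. Il18rap, 1 chain of the IL-18 receptor, was at 7.36, 7.99 and 8.17 in stage 3 cells and at 4.47, 4.35 and 4.58 in T cells, at least 7.40-fold higher. Il18r1, the other chain, was at 10.07, 10.41 and 9.46 against 7.10, 6.94 and 6.95 (7.93-fold). Il12rb1 rose by 1.21. Il2rb, the β chain through which IL-15 signals, was at 7.79, 7.86 and 7.35 against 5.25, 6.36 and 5.65 (3.77-fold, adjusted p = 9.37e-05). Ifngr1 was at 10.84, 10.85 and 11.31 against 8.56, 8.14 and 8.30 (6.36-fold). For all 5 genes the lowest stage 3 array was above the highest T cell array. Il17rb (1.98) and Il10ra (1.07) rose too, Il10ra not without stage 3 replicate 3 or T cell replicate 1 or 2.

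Among the receptors that fell, Tgfbr3, the type III TGF-β receptor, was at 5.45, 4.53 and 5.54 in stage 3 cells and at 6.76, 8.13 and 7.09 in T cells (4.45-fold lower), while its second detected probe differed by -0.02. Il6st, the signalling chain shared by the IL-6 family, was at 4.45, 5.10 and 4.99 against 6.30, 7.08 and 6.42. Il6ra was at least 1.56-fold lower, and Tgfbr2 lay between 9.86 and 10.56 against 10.93 to 11.40, a call lost without stage 3 replicate 2 or T cell replicate 3. The stage 3 arrays were below the T cell arrays in these genes, by a small margin for Tgfbr2. The median of the 19 genes was 0.17, and -0.23 with median scaling, under which Il18r1, Il18rap, Il6st and Tgfbr3 were called.

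Among effector lineage factors 5 of 10 tested rose and 1 fell (median 0.84). Tbx21, which encodes T-bet, the factor that fixes the type 1 fate and drives terminal iNKT maturation, was at 7.42, 7.03 and 7.24 in stage 3 cells and at 4.47, 4.45 and 4.85 in T cells (6.24-fold, adjusted p = 7.31e-08). Bhlhe40, a repressor used by cytokine-producing T cells, was at 9.68, 9.73 and 9.99 against 5.04, 4.54 and 5.07 (30.2-fold). Nfil3, a factor required for NK cell development, was at least 17.9-fold higher (8.79, 9.25 and 9.31 against 4.39, 4.47 and 4.67). These factor genes had no overlap between the groups. Rora rose by 2.72 and Id2, an inhibitor of E proteins, by 0.93, a call lost without T cell replicate 1. Egr2, a target of T cell receptor signalling needed early in the iNKT lineage, was at 6.06, 4.99 and 6.15 against 7.82, 7.86 and 8.06 and fell by 2.18 on the log2 scale. Gata3 was at 8.35, 7.72 and 8.08 against 8.09, 8.12 and 7.76 and was not called, nor were Stat4 (0.75), Ikzf2 (0.42) and Zeb2 (0.31). With median scaling Tbx21, Rora, Nfil3 and Bhlhe40 were called.

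Genes of the naive state and of thymic exit were lower in stage 3 cells. Of 16 tested 11 fell and 2 rose, with a median of -2.45. Igfbp4, a gene typical of recent and naive T cells, was at 5.68, 5.18 and 5.42 in stage 3 cells and at 11.21, 11.49 and 11.21 in T cells (58.8-fold lower, log2 difference -5.88 ± 0.21 SE, adjusted p = 5.25e-12). Klf2, the factor that switches on exit and homing receptors, was at 7.85, 6.65 and 7.10 against 10.08, 10.36 and 10.16 (8.01-fold lower). Ccr7, the lymph node homing receptor, was at 5.13, 4.36 and 4.78 against 8.55, 8.68 and 8.67 (14.7-fold lower). On none of these genes did any stage 3 array come near a T cell array.

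Nsg2 was 22.9-fold lower (5.20, 4.95 and 5.66 against 9.70, 9.85 and 9.81) and Actn1, which encodes an actin cross-linker, 12.9-fold lower. Lef1, a Wnt-responsive factor of the naive state, was at 5.45, 5.41 and 6.05 against 7.62, 8.41 and 8.27, and Foxo1, which controls Klf2, at 6.72, 5.99 and 6.50 against 9.14, 9.07 and 9.04. Id3 was at least 3.11-fold and Dapl1 at least 4.05-fold lower, and Foxp1 differed by -0.99, a call lost without T cell replicate 2. Satb1 (0.02), Klf3 (-0.62) and Ly6d (0.72) were not called. The 2 that rose were Il7r, the receptor for the survival cytokine IL-7 (10.05, 10.89 and 10.58 against 9.10, 9.61 and 9.65), and Itgae, which encodes CD103 (0.70). Both calls were lost without T cell replicate 1, and Itgae also without T cell replicate 2 or stage 3 replicate 2 or 3. With median scaling 10 of the 16 genes fell and none rose.

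The coreceptor genes differed as follows. Cd8b1, the β chain of CD8, was at 7.34, 7.38 and 6.11 in stage 3 cells and at 12.58, 12.43 and 12.72 in T cells (49.6-fold lower, adjusted p = 1.21e-09), with all stage 3 arrays still above the detection limit. Cd4 was detected on no stage 3 array and was at least 2.80-fold lower, at 4.77, 4.55 and 4.89 against 6.87, 6.42 and 6.32. The Cd4 signal was low in T cells too, where the lowest detected signals were 4.8 to 5.07. A missed detection in stage 3 cells is therefore no sign that they lack the transcript. Cd8a did not pass the detection filter. Within the T cell receptor complex and its signalling, 5 of 27 tested genes rose and 9 fell (median -0.36). Fcer1g, an ITAM adaptor that pairs with NK and Fc receptors and also marks myeloid cells, was at 10.16, 9.40 and 10.31 against 4.47, 4.75 and 4.69, at least 32.1-fold higher. Its rise took place beside those of Tyrobp (at least 1.69-fold) and of the lysozyme genes Lyz1 (at least 8.36-fold) and Lyz2 (at least 2.35-fold).

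Ptpn22 and Ptpn6, which encode phosphatases that restrain receptor signalling, rose by 1.78 and 0.87, the kinase genes Tec and Zap70 by 1.29 and 1.01. Cd247, the ζ chain of the receptor, fell by 0.98 on the log2 scale. Cd5, whose surface level is set by receptor signalling, was at 9.06, 9.20 and 9.37 against 10.38, 10.31 and 10.27. Dgka, a kinase that ends diacylglycerol signals, was at 9.34, 9.38 and 9.69 against 10.97, 11.40 and 10.94 (3.11-fold lower). Themis, a factor of thymocyte selection, was at least 2.20-fold lower, and Ubash3a 2.68-fold lower, with Lat and Rasgrp1 falling by 0.73 and 0.91. Cd247, Lat and Rasgrp1 lost their calls without T cell replicate 1 or stage 3 replicate 1, Cd247 also without T cell replicate 3, and Lat in every such run but that without stage 3 replicate 2. Lcp2 (0.01), Ptprc (0.10), Cd6 (-0.42) and Prkcq (-0.42) were not called. With median scaling Fcer1g was called higher and Cd4, Cd8b1, Ubash3a and Dgka lower.

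SLAM receptors carry homotypic signals needed for iNKT selection. Of 8 tested genes of this group only Sh2d2a, an adaptor of activated T cells, was called (11.79, 11.56 and 11.57 in stage 3 cells against 10.66, 10.36 and 10.55 in T cells). Slamf1 (-0.59), Ly9 (0.65), Cd84 (0.14), Cd48 (-0.16), Sh2d1a (0.10) and Fyn (-0.02) were not. The median absolute difference of all genes was 0.38, and 12.5% of this group was called against 23.1% of all genes tested.

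Costimulatory and inhibitory receptors were divided, with 5 of 16 tested higher and 5 lower (median -0.01). Icos was at 10.96, 11.06 and 11.12 in stage 3 cells and at 8.74, 9.05 and 8.70 in T cells (4.65-fold, adjusted p = 3.48e-06). Ly6c1, an antigen of memory and effector T cells, was 7.80-fold higher (11.30, 10.91 and 11.15 against 8.04, 7.70 and 8.74). Cd82 (1.36), Tnfrsf18 (1.18), the gene of GITR, and Tnfrsf1b (at least 1.33-fold) also rose, Tnfrsf1b not without stage 3 replicate 2 or 3 or T cell replicate 2 or 3. Cd81, a tetraspanin gene, was at 7.17, 7.72 and 7.56 against 9.32, 9.14 and 9.18 and fell by 1.73 on the log2 scale. Besides Tnfrsf4 and Cd81, Btla fell by 1.23, Tnfrsf25 by 0.82 (not called without stage 3 replicate 2 or T cell replicate 1) and the inhibitory receptor gene Ctla4 by 0.78. Cd28 (0.43), Cd27 (-0.03), Lag3 (0.10) and Havcr2 (0.01) were not called. Tnfrsf4 and Cd81 were the members called with median scaling.

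Of 8 regulatory T cell markers, Gpr83, Foxp3, Ikzf4 and Ctla4 fell and Tnfrsf18 rose. Foxp3, the defining factor of regulatory T cells, was at 5.13, 5.49 and 4.58 in stage 3 cells and at 6.66, 5.63 and 6.37 in T cells, so that T cell replicate 2 came close to the stage 3 arrays, and its call was lost without T cell replicate 1. Ikzf4 was detected on no stage 3 array and on all 3 T cell arrays. Izumo1r (0.96), Ikzf2 (0.42) and Il2ra (-0.23) were not called.

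Survival genes were divided as well, with 6 of 19 tested higher and 6 lower (median 0.12). Bcl2a1d and Bcl2a1c, copies of an anti-apoptotic BCL2 relative that NF-κB induces, were at 9.07, 8.74 and 8.35 and at 8.95, 8.77 and 8.33 in stage 3 cells, against 5.58, 4.30 and 5.18 and 5.12, 4.53 and 5.43 in T cells. The copies are nearly identical, so their probes may read each other. Pim1 and Pim3, kinases induced by cytokine signals, were at least 7.07-fold and 10.3-fold higher. Pim3, for instance, was at 10.71, 10.50 and 10.62 against 7.14, 7.10 and 7.50. Pim2 in turn fell by 0.88 on the log2 scale.

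Bcl2l11, the gene of the pro-apoptotic BIM, was at 9.13, 9.13 and 8.81 in stage 3 cells and at 7.28, 7.68 and 7.21 in T cells, and Bid rose by 0.99. Birc5, which encodes survivin and is used in mitosis, was 4.5-fold lower, and Mcl1, Fas, Casp8 and Traf1 fell by 0.88, 0.84, 0.78 and 0.62. Bcl2 was not called, at 8.07, 8.21 and 8.27 against 8.29, 8.84 and 8.07 for the probe used, and its other detected probes differed by -1.16 to 0.11. Without T cell replicate 1 the fallen genes numbered 2 in place of 6, with Fas, Casp8, Pim2 and Traf1 lost. Traf1 lost its call whichever array was left out, Pim2 and Bid in 4 of the 6 runs each, and Casp8 also without stage 3 replicate 2. With median scaling both Bcl2a1 genes, Pim1, Pim3 and Birc5 were called.

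Of 11 tested chemokine and trafficking receptors 5 rose and 1 fell. Cxcr3, induced by T-bet, was at 8.07, 8.5 and 8.64 in stage 3 cells and at 5.18, 4.72 and 5.66 in T cells (9.28-fold, adjusted p = 4.59e-07). Ccr8 was 4.94-fold and Cxcr6, which holds iNKT cells in the liver, 2.58-fold higher (7.06, 7.16 and 7.35 against 5.81, 5.49 and 6.16). Gpr183 (0.97, not called without stage 3 replicate 3 or T cell replicate 1 or 2) and the sort marker Cd44 rose too, and Cxcr3 was the one called with median scaling. Cd69, an early activation antigen that opposes exit, was at 8.60, 8.27 and 8.68 against 9.22, 9.48 and 9.76 and fell by 0.97 on the log2 scale. Cxcr4 (-0.66), Cxcr5 (-0.11) and Ccr6 (0.33) were not called.

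Of 9 adhesion genes Icam1 rose (9.52, 8.97 and 9.36 in stage 3 cells against 7.41, 7.16 and 7.38 in T cells). Cd2, Cd47 and Itgb7 fell by 0.87, 0.69 and 0.58. Each of these 3 calls was lost when single arrays were left out, T cell replicate 1 among them for all of them. The adhesion genes Itgb1 (0.39) and Itgb2 (0.37) were not called.

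Immediate early genes, which cells switch on within minutes of a stimulus, were mostly higher in stage 3 cells. Of 20 tested 14 rose and 1, Egr2, fell (median 1.61). Junb, an AP-1 subunit gene, was at 12.33, 12.18 and 12.05 in stage 3 cells and at 8.35, 8.41 and 8.21 in T cells (14.6-fold, adjusted p = 1.53e-09). Tnfaip3, which encodes A20, an NF-κB inhibitor that NF-κB itself induces, was at 10.55, 11.12 and 11.10 against 6.14, 6.23 and 6.81 (23.0-fold). Dusp1, a phosphatase of MAP kinases, was at 11.93, 11.65 and 12.33 against 8.56, 8.16 and 8.65 (11.4-fold), and Ppp1r15a, a regulator of the stress response of translation, at 9.69, 9.49 and 9.24 against 6.68, 6.45 and 6.27 (8.03-fold). For these genes the distance between the groups was several times the spread within them. The groups were sorted through different gates, so a difference in the thymus and one arising during the sort cannot be told apart.

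Fosb (2.83), Nr4a2 (2.45), Nfkbia (1.80), Fos (1.73), Jund (1.49), Dusp2 (1.45), Jun (0.97) and Btg1 (0.81) rose too, as did Atf3 (at least 2.69-fold) and Nr4a3 (at least 2.61-fold). Jun lost its call without stage 3 replicate 2 or T cell replicate 1, and Btg1 in every such run but that without stage 3 replicate 1. The EGR genes did not share this direction: Egr1 was at 10.27, 10.37 and 10.40 in stage 3 cells and at 10.90, 11.02 and 10.69 in T cells (adjusted p = 0.0794), and Egr3 differed by -0.05. Ier3 (0.68), Zfp36 (0.38) and Zfp36l1 (0.23) were not called. With median scaling 7 of the 20 were called (Junb, Nr4a2, Nr4a3, Atf3, Dusp1, Tnfaip3 and Ppp1r15a).

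The upstream sequences of 3 of these genes are shown because motifs of inducible factors were found in them by a letter search on both strands. They are the 250 bases before the annotated start, 5′ to 3′, from the RefSeq promoter table (GRCm38.p6), with the matched letters in capitals. In Dusp1 and Ppp1r15a the capitals mark the cyclic AMP response element TGACGTCA.
Dusp1 (chr17:26508473-26508722, minus strand): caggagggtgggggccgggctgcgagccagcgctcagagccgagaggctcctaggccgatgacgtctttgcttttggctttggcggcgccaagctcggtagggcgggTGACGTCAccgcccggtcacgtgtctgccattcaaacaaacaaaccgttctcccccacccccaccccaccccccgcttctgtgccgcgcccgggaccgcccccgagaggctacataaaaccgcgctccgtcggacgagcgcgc
Ppp1r15a (chr7:45526269-45526518, minus strand): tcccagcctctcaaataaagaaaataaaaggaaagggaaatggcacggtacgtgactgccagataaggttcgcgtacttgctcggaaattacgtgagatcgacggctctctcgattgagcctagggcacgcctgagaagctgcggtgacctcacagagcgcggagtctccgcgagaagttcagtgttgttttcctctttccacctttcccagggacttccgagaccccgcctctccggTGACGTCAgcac
In Tnfaip3 they mark an AP-1 site, TGACTCA, and further on a reverse-strand match to the NF-κB site, nearest the start.
Tnfaip3 (chr10:19015411-19015660, minus strand): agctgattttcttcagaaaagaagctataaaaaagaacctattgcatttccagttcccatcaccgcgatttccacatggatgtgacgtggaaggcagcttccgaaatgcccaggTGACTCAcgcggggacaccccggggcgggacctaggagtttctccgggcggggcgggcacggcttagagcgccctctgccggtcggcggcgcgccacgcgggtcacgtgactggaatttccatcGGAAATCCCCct
TGACGTCA begins 143 bases before the start in Dusp1 and 12 bases before it in Ppp1r15a. It is held by 2 of the 14 risen immediate early genes (14.3%), by 4.18% of the 574 risen genes with a window, by 1.12% of the 715 fallen genes with a window, by 3.01% of the 5652 tested genes with a window and by 1.77% of all 27025 genes in the table. The NF-κB site is held by 1.65% and TGACTCA by 5.16% of all genes in the table, and by 1.70% and 3.72% of tested genes. A match is a description of these letters and not a binding site.

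The upstream sequence of the chemokine gene Xcl1 is given because it holds the T-box core GGTGTGA, the letters recognised by T-bet and its relatives, 188 bases before the start.
Xcl1 (chr1:164935523-164935772, minus strand): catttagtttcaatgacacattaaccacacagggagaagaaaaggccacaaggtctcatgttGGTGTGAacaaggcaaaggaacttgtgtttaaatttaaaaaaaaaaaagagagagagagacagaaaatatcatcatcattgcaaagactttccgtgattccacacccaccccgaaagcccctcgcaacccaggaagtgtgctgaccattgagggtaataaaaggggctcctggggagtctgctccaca
This core is found in 3 of the 20 risen NK receptor, granule and cytokine genes that have a window, in 3.48% of all risen genes, in 2.24% of fallen genes, in 3.13% of tested genes and in 3.84% of all genes in the table. No other motif searched was found in this window.

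Genes of the cytoskeleton, annexins, galectins and S100 proteins rose in part, with 9 of 21 higher and 2 lower (median 0.34, and -0.01 with median scaling). Myo1f, an unconventional myosin of leukocytes, was at 9.61, 9.93 and 10.13 in stage 3 cells and at 5.94, 5.71 and 5.85 in T cells (16.6-fold, adjusted p = 2.87e-08). Lgals3, which encodes galectin-3, was at 11.13, 11.32 and 11.29 against 8.36, 7.29 and 7.88, and Anxa2 at 11.10, 11.18 and 11.78 against 8.16, 8.28 and 8.23. Both are also abundant in myeloid cells. S100a6 (3.10), Ahnak (3.56), S100a11 (2.66), Capg (2.52), Lmna (1.61) and S100a4 (1.15) rose too, and Emp3 and Tmsb10 fell by 2.14 and 1.15, Tmsb10 not without stage 3 replicate 3. Between 2 and 4 of these genes were called lower when 1 array was left out. Vim (-0.75), Lgals1 (-0.32), Anxa1 (0.24) and Tmsb4x (0.34) were not called.

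G protein regulators gave 7 of 19 tested higher and 2 lower (median 0.10, and -0.02 with median scaling). Rgs1, which dampens chemokine receptor signals and holds lymphocytes in tissue, was at 10.38, 10.17 and 10.28 in stage 3 cells and at 7.36, 5.81 and 6.79 in T cells (12.3-fold). Nt5e, which encodes CD73, the enzyme that makes adenosine, was 6.19-fold higher (9.75, 9.79 and 9.93 against 7.41, 6.81 and 7.35). Gpr18 was at 8.10, 8.17 and 8.46 against 9.45, 9.40 and 9.66 and fell by 1.26 on the log2 scale. The stage 3 arrays of Rgs1 and Nt5e lay within narrow ranges, whereas T cell replicate 2 was the lowest of both. With median scaling Rgs1 was called.

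Of 28 tested genes of DNA replication and division 11 fell and 1 rose, with a median of -0.53. E2f2, a factor that starts S phase, was at 5.13, 4.63 and 5.58 in stage 3 cells and at 8.41, 8.60 and 8.20 in T cells (9.78-fold lower, adjusted p = 3.87e-08). Stmn1, a microtubule regulator of dividing cells, was 4.22-fold lower (5.67, 5.66 and 5.47 against 7.59, 7.82 and 7.62), and Top2a, a mitotic topoisomerase, 4.6-fold lower (4.75, 5.78 and 5.90 against 7.42, 7.80 and 7.81). Stage 3 arrays stayed below every T cell array for all of them. Cdk2, Uhrf1, E2f1, Rrm2, Tyms and Cdkn2d fell by 1.18 to 1.61, and Ccne1 and Plk1 fell to signals not detected on any stage 3 array. Rrm2 lost its call in every run with 1 array left out but that without stage 3 replicate 3. Of the MCM helicase genes none was called (Mcm2 -0.28, Mcm3 -0.20, Mcm4 -0.18, Mcm5 -0.50, Mcm6 0.71 and Mcm7 -0.58), and Pcna differed by -0.30. Cdkn1b, a cell cycle inhibitor gene, rose by 0.73 (adjusted p = 0.0440) and lost that call in 13 of 17 alternative settings. With median scaling E2f2, Stmn1 and Top2a were called.

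Glycolysis genes were higher for 6 of 13 tested and lower for 1 (median 0.66). Hk2, the inducible hexokinase gene, was at 6.98, 7.52 and 6.77 in stage 3 cells and at 5.50, 4.67 and 5.03 in T cells (4.06-fold). Slc2a1, the glucose transporter GLUT1, was 2.76-fold higher, and Tpi1, Aldoa, Pgam1 and Slc2a3 rose by 1.60, 0.86, 0.77 and 0.66, Pgam1 and Slc2a3 not without T cell replicate 1, and Slc2a3 also not without T cell replicate 2 or stage 3 replicate 3. The other detected Tpi1 probes differed by -0.23 and 0.92. Pdk1 fell by 1.15 (5.91, 7.01 and 6.93 against 7.74, 7.91 and 7.65). Ldha (-0.17), Pkm (-0.50) and Gapdh (0.47) were not called, and no glycolysis gene was called with median scaling.

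Oxidative phosphorylation subunits gave 3 lower of 26 tested and none higher (median -0.38). This share, 11.5%, was near the 12.5% of all genes tested that fell. The 3, Ndufb3, Ndufb9 and Ndufs7, fell by 1.23, 1.11 and 0.71. Between 0 and 5 were called lower when single arrays were left out, and none with median scaling. Of 19 ribosomal protein genes none was called, with a median of 0.01 and a range of -0.39 to 0.39, and of -0.30 in the median with median scaling.

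Interferon-stimulated genes were lower for 7 of 22 tested and higher for 2 (median -0.50). Usp18, a brake on type I interferon signalling that interferon induces, was at 5.59, 5.11 and 6.65 in stage 3 cells and at 9.02, 7.94 and 8.84 in T cells (7.05-fold lower, adjusted p = 3.63e-05). Isg15, Oasl2, Irf9, Psmb9, Ifi47 and Igtp fell by 1.19 to 1.57. Psmb9, an immunoproteasome subunit, was at 9.37, 9.0 and 8.79 against 10.67, 10.26 and 10.51. The 2 that rose were Gbp3 (1.27) and Irf8 (1.60), and Irf8 is also a marker of dendritic cells. Irf7 (-0.10), Ifit3 (-0.42) and Irf1 (0.28) were not called. Usp18 was called with median scaling.

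GIMAP GTPases of lymphocyte survival showed 1 higher and 1 lower of 8. Gimap7 was at 6.71, 6.56 and 6.56 in stage 3 cells and at 8.59, 8.85 and 8.83 in T cells (4.42-fold lower, adjusted p = 5.82e-06). Gimap5, at 8.11, 7.76 and 6.87 against 6.80, 6.58 and 6.41, barely passed (adjusted p = 0.0499) and lost the call in 9 of 17 alternatives. Its second probe differed by -0.30. The other 6 GIMAP genes differed by -0.31 to 0.13.

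**Figure D4:**
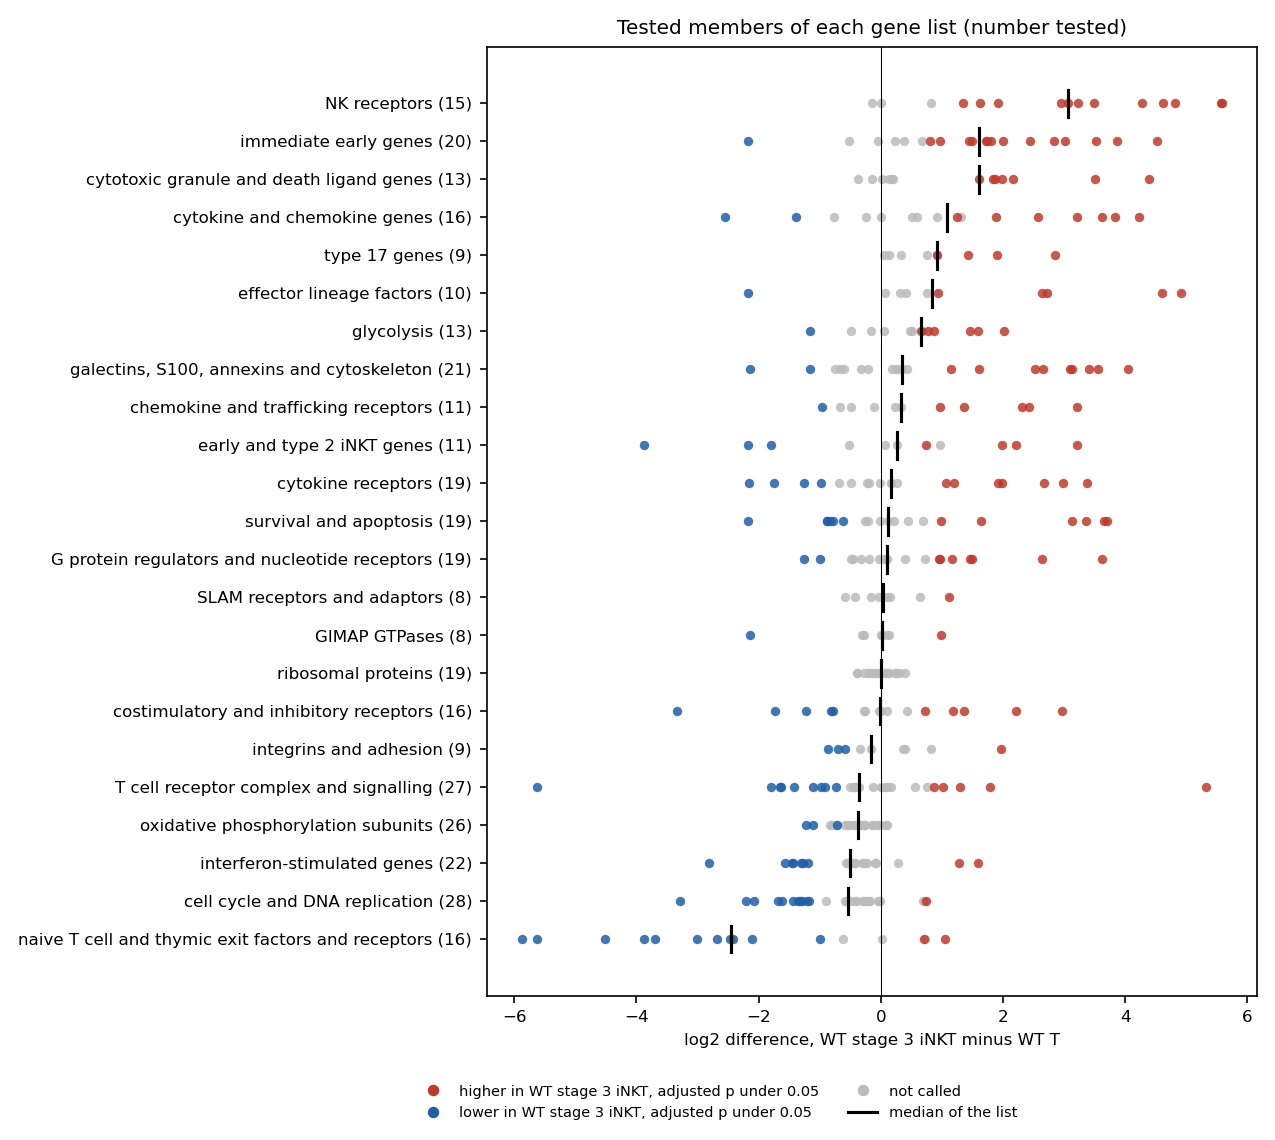
Log2 difference, WT stage 3 iNKT minus WT T (horizontal axis), of every tested member of the 23 gene lists, ordered by the list median (black bar). Red members rose, blue members fell and grey members were not called; NK receptors have the highest median, 3.07, and the naive T cell and thymic exit genes the lowest, -2.45.

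Type 17 genes rose for 4 of 9 tested and fell for none (median 0.92). Blk, a Src family kinase of B cells and IL-17 producers, was at 6.80, 7.58 and 7.25 in stage 3 cells and was detected on no T cell array, at least 4.79-fold higher. Tmem176b rose by 1.90, Il17re by at least 1.75-fold and Nrp1 by 0.92 (adjusted p = 0.0499, lost in 10 of 17 alternatives). Il17a was not called (0.92). Among early and type 2 iNKT genes 4 of 11 rose and 3 fell: Il4, Icos, Il17rb and Lmo4 were higher, and Ccr7, Egr2 and Cd4 were lower. The Lmo4 call was lost without stage 3 replicate 2 or any 1 of the T cell arrays. With median scaling 1 type 17 gene, Blk, rose, and of the early and type 2 genes Il4 rose and Ccr7 and Cd4 fell. Il17rb, the receptor for IL-25, was at 6.87, 6.94 and 7.44 against 5.14, 5.10 and 5.08 (3.94-fold).

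Set against the less mature WT stage 1-2 iNKT cells, the same stage 3 arrays had 623 genes higher (9.11%) and 754 lower (11%) of the 6838 tested. Both comparisons use the stage 3 arrays, so their values are given side by side without a count of shared genes. Tbx21 was 2.33 higher than in stage 1-2 cells and 2.64 higher than in T cells (log2 differences). Fasl differed by 3.8 and 4.39, and Xcl1 by 4.61 and 4.23. Klre1, Klra7 and Ifng, at least 35.2-fold, 17.5-fold and 11.85-fold higher than in T cells, were at 4.36 to 4.82, 4.68 to 5.02 and 4.47 to 6.09 on stage 1-2 arrays. All 6 genes were called in both comparisons. Stage 3 was thus the high group for these genes on both sides.

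NK receptors counted 14 higher and 1 lower of 15 against stage 1-2 cells, with a median of 2.05. Members that passed the detection filter only through stage 3 arrays could not show a fall here either. The sort marker Klrb1c, 3.73 higher, is among the 14 and is again a check, since stage 1-2 cells were gated as NK1.1 negative. Klrd1 was at 10.79, 11.19 and 10.73 in stage 3 cells and at 6.95, 6.82 and 7.39 in stage 1-2 cells. Cell cycle genes counted 16 lower and none higher of 28 against stage 1-2 cells, with a median of -1.19. Bcl2, not called against T cells, was 3.11 higher than in stage 1-2 cells for the probe used. That probe was at 4.48, 5.25 and 5.48 in stage 1-2 cells, and the other Bcl2 probes were not compared between the stages. The part of the myeloid cells in the stage 1-2 values was not tested.

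Other genes stood between the groups. Il4 was 1.46 lower in stage 3 than in stage 1-2 cells (adjusted p = 0.00653), where it was at 10.18, 11.06 and 9.84, although it was 3.22 higher than in T cells. Ccl4 differed by -2.32 from stage 1-2 cells and by 2.57 from T cells, and Il17rb by -2.14 and 1.98. The myeloid markers S100a8 and Lyz1 had the same order, with differences of -5.09 and -3.69 from stage 1-2 cells and levels at least 9.07-fold and 8.36-fold above T cells. Rora, Il18r1 and Icos did not pass the test between the stages (0.31, 0.36 and -0.11), and Klf2 and Lef1 did not either (0.23 and -0.59), whereas Igfbp4 fell by 4.32 and Ccr7 by 2.15 between them.

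**Figure D5:**
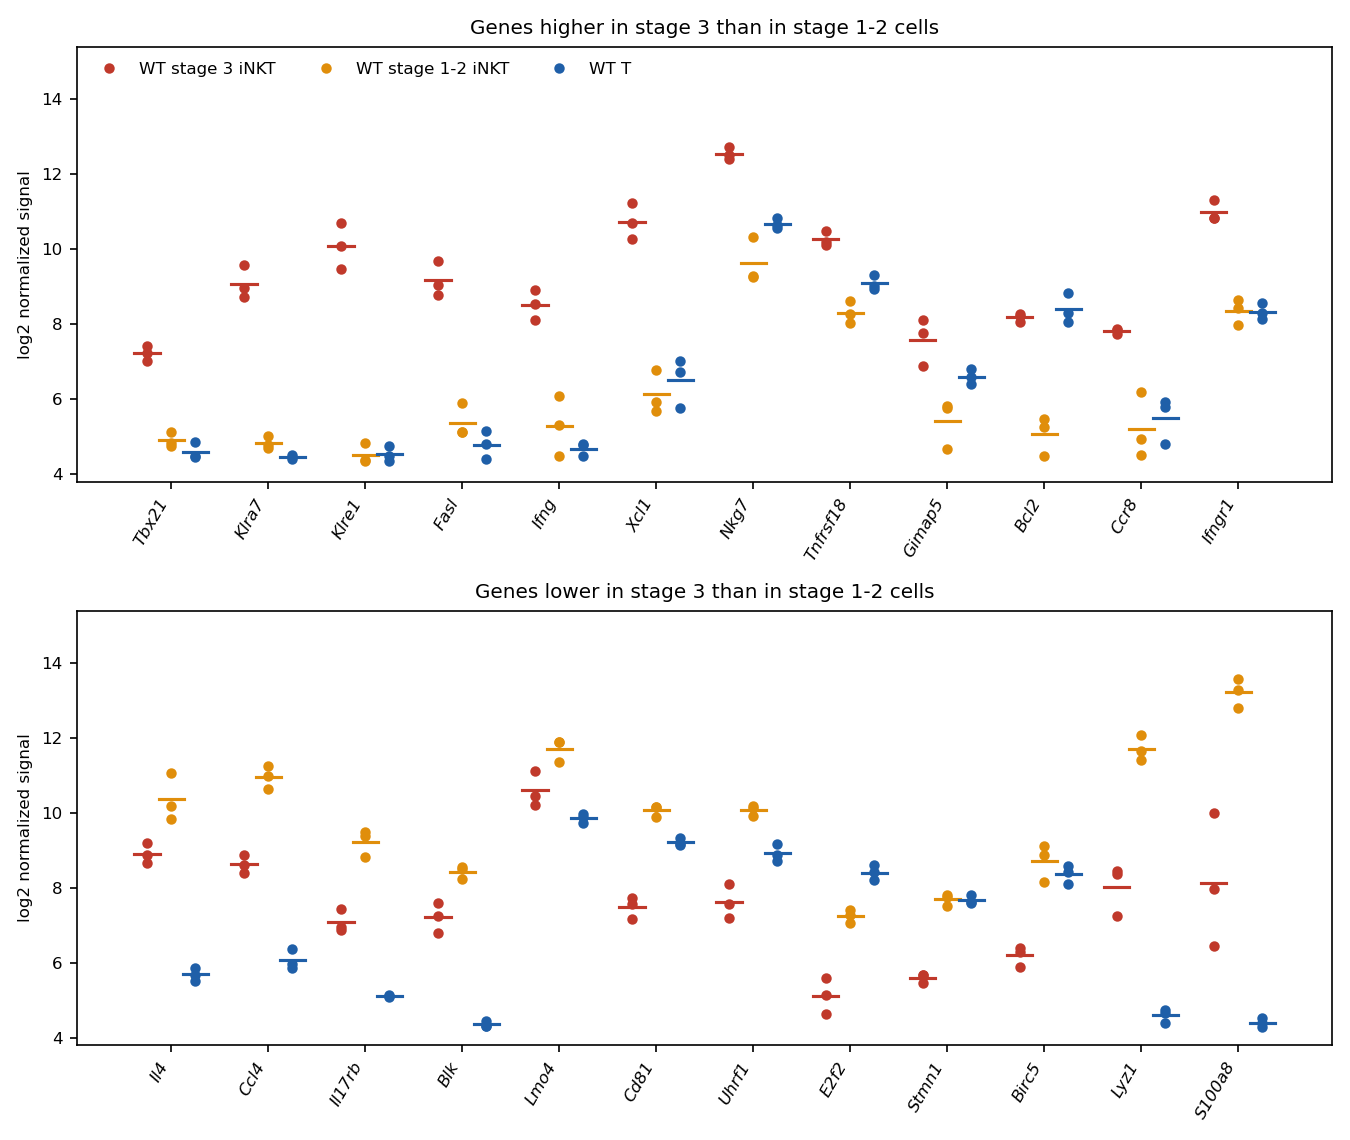
Log2 normalized signal (vertical axis) of 24 genes on each array of WT stage 3 iNKT (red), WT stage 1-2 iNKT (orange) and WT T cells (blue), 3 arrays each; bars are group means. The upper panel holds genes higher in stage 3 than in stage 1-2 cells, such as Tbx21, Klre1 and Ifng, and the lower panel genes lower in stage 3 than in stage 1-2 cells, where Il4, Ccl4, Il17rb, Lyz1 and S100a8 lie between the other groups.

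Dicer1, the gene deleted in the KO groups and floxed but intact in both groups compared, was at 7.31, 6.62 and 7.6 in stage 3 cells and at 6.43, 6.59 and 6.30 in T cells. Its difference of 0.73 passed narrowly (adjusted p = 0.0409) and lost the call without T cell replicate 1, 2 or 3 and without stage 3 replicate 1 or 3. Stage 3 replicate 2 was barely above the highest T cell array.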

How the data were processed

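Illumina mouse bead arrays were read with GenomeStudio, per the submitters' processing notes, whose version is not given in the sources used here. The authors deposited a non-normalized intensity and a detection p-value for each of 25697 probes on 15 arrays, per the file headers, and a normalized table used as an alternative. GEO's platform annotation gave 23978 probes 1 gene symbol and 1719 none, and the latter were not analysed here.

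Intensities were background-corrected with normexp on the detection p-values, offset by 16 and quantile-normalized, and log2 values were taken (neqc, limma 3.58.1 in R 4.3.3). Probes had to reach a detection p under 0.05 in every array of 1 or more of the 5 groups, and the brightest probe stood for a gene, which left 6838 genes. The 5 group means were fitted over 15 arrays, with 10 residual degrees of freedom, and moderated by eBayes; calls have a Benjamini-Hochberg adjusted p under 0.05. Where all arrays of the lower group missed a gene, its fold change is a lower bound. Replicate numbers showed no sign of pairing the arrays (correlations of same-numbered deviations of 0.0302, -0.0111 and 0.0884). With 3 arrays a group such correlations cannot exclude a pairing. The files used name no batch.

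Named genes were the 12 largest rises and falls without overlap, up to 4 members a list in each direction with the smallest adjusted p, preset controls, and list members not called; other members named were chosen after their values were seen. The members and lists were chosen with earlier results of these data known. Marker genes of myeloid, B, stromal and erythroid cells were kept out of the largest changes unless a gene list held them. Clone, predicted-gene and accession-like symbols were kept out of them as well. Alternatives covered normalization, filter, probe choice, model, samples and each replicate left out. Figures were drawn with Python 3.11.15 and matplotlib 3.10.9.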

Additional observations from a re-analysis of the deposited data

Results flagged for a closer look

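Only the 146 named genes, partly chosen by their difference between stage 3 and T cells, were searched for opposite directions in the iNKT stages. For 6 of them stage 3 iNKT cells and stage 1-2 iNKT cells differed from WT T cells in opposite directions. The difference between the stages itself also passed the test (limma, stage 3 minus stage 1-2, log2 scale, adjusted over all genes). Nkg7, a granule membrane protein gene, was higher in stage 3 than in stage 1-2 cells by 2.93 (adjusted p = 1.92e-06), with 9.29, 9.25 and 10.33 on stage 1-2 arrays, which lay 1.06 below T cells by the group means. Tnfrsf18, the gene of GITR, was higher by 1.96 (adjusted p = 2.67e-05), and Gimap5 by 2.17 (adjusted p = 0.0003), although the Gimap5 call against T cells was lost in 9 of 17 alternatives. The tetraspanin gene Cd81 differed by -2.59 (adjusted p = 1.63e-07), and its stage 1-2 arrays, at 10.17, 10.17 and 9.89, were above those of T cells. Uhrf1, which maintains DNA methylation in dividing cells, differed by -2.45 (adjusted p = 2.04e-06). The B cell marker Cd79b differed by -2.66 (adjusted p = 0.000363), with 6.58, 6.97 and 8.68 on stage 1-2 arrays, where the 3 B cell markers averaged 7.02 to 8.29, against 5.34 to 5.55 on stage 3 arrays. The Cd79b call against T cells was lost in 11 of 17 alternatives. Neutrophil markers averaged 8.81 to 9.77 on stage 1-2 arrays and 4.51 to 4.66 on T cell arrays. Dendritic cell markers averaged 8.39 to 9.70 and 4.98 to 5.18. The part of B cells in the Cd79b value was not tested, nor was that of these other cells in the values of the 6 genes.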

How the results depend on the processing

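Of 18 alternatives, the scaling moved the counts most: with median scaling 192 genes were called, 92 higher and 100 lower, all of them among the 1578 called with quantile normalization, and the cause was not tested. A required 2-fold change left 903 genes by construction, 438 higher and 465 lower. Leaving out 1 array at a time gave 1141 to 1583 calls, 549 to 731 higher and 590 to 852 lower, with the fewest without T cell replicate 1. The normalized table of the authors gave 1531 calls. With the replicate number as a block 1516 genes were called, and since the numbers showed no sign of pairing the arrays this is a check only. The block ended the calls of Cdkn1b, Gimap5 and Dicer1 among the named genes. No named gene reversed its direction while called. Of 146 named genes 136 passed the test, 68 of them in every alternative, and 68 lost the call in 1 or more. List medians changed sign with median scaling for cytokine receptors (-0.23), survival genes (-0.12), early and type 2 iNKT genes (-0.15), galectins and S100 proteins (-0.01), G protein regulators (-0.02), SLAM receptors (-0.31), GIMAP GTPases (-0.38) and ribosomal proteins (-0.30). The number of arrays limits the precision, and signals near background give bounds only.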

Other observations

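Core histone genes, a family chosen after its values were seen, were lower in stage 3 iNKT than in T cells for part of its classes. Of 12 tested H2A genes 9 fell and none rose, with a median log2 difference of -2.41, and 4 fell with median scaling. Of 8 H2B genes 7 fell (median -1.08), but none with median scaling. Of 8 H3 genes none was called, and of 8 H4 genes 1 fell. The histone genes are close copies, so probes may read several of them. Against stage 1-2 cells 10 H2A genes fell, with a median of -2.62.

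Among 9 tested Krüppel-like factor genes 3 rose and 3 fell. Klf9 and Klf6 rose by 2.96 and 2.20 on the log2 scale and Klf4 at least 3.39-fold, where Klf2 fell by 3.00. With median scaling 1 of the 9 rose and 1 fell. Of 40 mitochondrial ribosomal protein genes of the large subunit 13 fell and 1 rose (median -0.65), and of 8 exosome subunit genes 4 fell. With median scaling no gene of either family was called. The shares for all genes tested were 12.5% lower and 10.6% higher.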
